A study of Homo sapiens with 5 samples.

Results

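The unfolded protein response and its ATF4 branch are described here through 50 genes of RH4 cells, a human alveolar rhabdomyosarcoma line, after knock-down of the circular RNA circVAMP3. The members were chosen by name, as the sensors, transcription factors, target genes, chaperones and degradation factors of the response. Earlier results of these data were known when they were chosen. Of the 50, 49 were found among the 13822 genes of the table, and DERL3 was not analysed here. Poly-A+ RNA of 5 cultures was sequenced: 3 transfected with the control siRNA si-SCR and 2 with si-circVAMP3, an siRNA placed across the back-splice junction of the circle. Both siRNAs were given at 30 nM with the same lipid reagent, the medium was changed at 24 h, and cells were collected 24 h later. The comparison therefore rests on 1 siRNA in 1 cell line at 1 time, with no untransfected culture analysed here. The study calls the samples biological replicates.

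Proteins that enter the endoplasmic reticulum (ER) are folded there by chaperones, and when unfolded proteins build up, the membrane sensors PERK (EIF2AK3), IRE1 (ERN1) and ATF6 are activated. PERK phosphorylates the translation factor eIF2, which lowers protein synthesis but raises translation of ATF4, a factor that turns on genes for amino acid synthesis and transport, for redox balance and, through CHOP (DDIT3), for cell death; other eIF2 kinases reach ATF4 from amino acid shortage, haem deficiency or double-stranded RNA. IRE1 splices the XBP1 mRNA and ATF6 is cut by Golgi proteases, and both resulting factors turn on chaperones and ER-associated degradation.

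Values are FPKM, fragments per kilobase of gene scaled to sequencing depth, as normalised by the authors, and are given in the order of the replicate numbers. Differences are si-circVAMP3 minus si-SCR on the log2(FPKM + 0.5) scale, which understates the change of genes at low FPKM. A gene was called where its Benjamini-Hochberg adjusted p from limma was under 0.05 among the 12245 genes with a mean of at least 0.5 FPKM. The libraries held 26441454, 25046732 and 24934451 reads in the listed genes in si-SCR and 18625439 and 28818720 reads in si-circVAMP3. Replicate 3 of si-SCR stood somewhat apart: the SD of its log2 differences over the genes tested was 0.207 to replicate 1 and 0.183 to replicate 2, against 0.135 between replicates 1 and 2 and 0.144 between the si-circVAMP3 replicates. Across groups the same SD lay between 0.282 and 0.317. Every pair of libraries differed by more than sampling noise (chi-square per degree of freedom of at least 3.96 over genes with 100 or more reads on average). That value covers counting error only, while separate cultures also vary, and no call rests on it.

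Of 8 markers of muscle tumours, MYOD1 stood at 115, 105 and 84.3 FPKM in si-SCR and 106 and 127 FPKM in si-circVAMP3, DES, CHRNA1, FGFR4 and CDH15 were at 27.1 FPKM or more in every library, and MYMK (3.42 to 5.50 FPKM) and PAX3 (2.13 to 2.46 FPKM) were low. Of 11 markers of epithelial, blood, endothelial, liver and fibroblast cells, 3 were analysed here: PECAM1 did not pass 0.153 FPKM, and PDGFRA and DCN did not pass 0.882 FPKM in any library. MYOG, a myogenic transcription factor, was lower in si-circVAMP3, at 175, 179 and 149 FPKM in si-SCR and 101 and 96.6 FPKM in si-circVAMP3 (log2 difference -0.76, 95% confidence interval -0.95 to -0.56, adjusted p = 0.00156). DES, FGFR4 and CDH15 were not called with all libraries but were called lower without si-SCR replicate 3, at adjusted p of 0.0268 for DES (0.0268 to 0.756 over the 16 alternative settings), 0.00356 for FGFR4 (0.00356 to 0.365) and 0.00492 for CDH15 (0.00492 to 0.529), the latter 2 also with a replicate block, and the part of these muscle genes in the results below was not tested. In RNA from a whole culture, fewer cells of a state and less RNA per cell cannot be told apart.

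The siRNA is shown because its letters recur in some of the members below. As listed by the study, its strand reads as follows, with the antisense strand as the reverse complement of the first 19 bases, bases 2 to 8 of the antisense strand in capitals, and the junction of VAMP3 exon 4 with exon 3 (GRCh38, GENCODE v44; exon 3 at chr1:7777160-7777318, exon 4 at chr1:7778118-7778169, plus strand) with the matching 19 bases in capitals.
si-circVAMP3: CAUCAUCGGUGGUGGACAUUU
antisense strand: aUGUCCACcaccgaugaug
back-splice junction: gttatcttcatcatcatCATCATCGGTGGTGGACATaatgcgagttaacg
Of the 19 matching bases, 8 lie in exon 4 and 11 in exon 3.

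VAMP3, the host gene of the circle (ENSG00000049245, chr1:7771296-7781432), stood at 36.4, 35.4 and 37.4 FPKM in si-SCR and 29.4 and 30.2 FPKM in si-circVAMP3. Every si-circVAMP3 value lay below every si-SCR value, and the gene was called lower (log2 difference -0.29, 95% confidence interval -0.39 to -0.18, adjusted p = 0.00496), a call that ended without si-circVAMP3 replicate 1 (adjusted p = 0.0506; 0.00283 to 0.0506 over the 16 alternative settings). The gene-level value of poly-A+ RNA reports mainly on the linear mRNA, so the level of the circle itself was not analysed here.

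Of the 49 members with values, 46 passed the filter on low values and ERN1, ASNS and NUPR1 did not. Among the 46, 14 were called lower and 4 higher. That is 30.4% lower, where 15.8% of all genes tested were called lower, and 8.7% higher, where 14.6% of all genes tested were called higher; in either direction, 18 members (39.1%) were called against a background of 30.4%. The median log2 difference was -0.01 over the members and 0.01 over all genes tested. With median centring, which moves all genes alike, it was 0.006 over the members and 0.028 over all genes tested. Values of the groups did not overlap for 34 of the 49 members (69.4%), in the lower direction for 20 and in the higher for 14, against 56.4% of all genes in the table. With the further demand that a log2 difference exceed 0.58 in size, 4 members were lower (EIF2AK3, PHGDH, VLDLR and CHAC1), with 2.72% of all genes lower by that rule, while the 4 higher members all lay within the limit, DDIT3 closest to it at 0.57, with 1.09% of all genes higher by the same rule. DDIT3 passed the limit with an offset of 0.1, with median centring, with voom and without si-SCR replicate 1, si-SCR replicate 2 or si-circVAMP3 replicate 1, at 0.585 to 0.612.

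Calls among the members and calls over the whole table both fell when either of the 2 si-circVAMP3 libraries was left out. The lone library left was then taken to vary as the si-SCR libraries do. The median member log2 difference was -0.019 without si-circVAMP3 replicate 1 and -0.033 without si-circVAMP3 replicate 2, against 0.010 and 0.002 over all genes tested. Without si-SCR replicate 1, 13 members were called lower and 3 higher, among 3064 calls (1643 lower and 1421 higher of 12242 genes). Without si-SCR replicate 2, 12 were called lower and 2 higher, among 2189 calls (1214 lower and 975 higher of 12235 genes). Without si-SCR replicate 3, 14 were lower and 4 higher, among 3994 calls (2005 lower and 1989 higher of 12232 genes). In that last fit SHMT2 was lost and DNAJC3 gained. The calls of EIF2AK3, DDIT3, CHAC1, PHGDH, PSAT1, SLC7A1 and HERPUD1 were kept whichever library was left out.

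**Figure D1:**
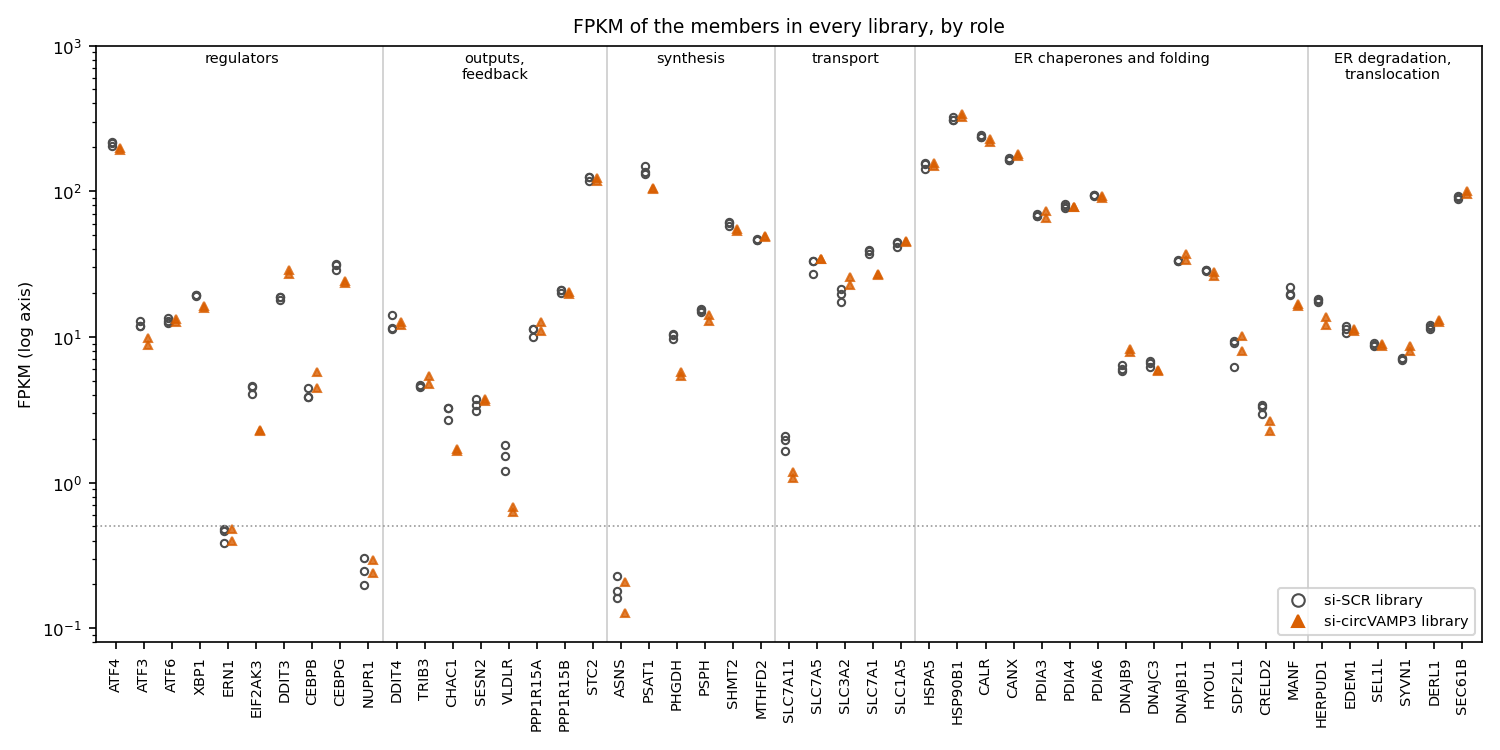
FPKM (log axis) of the 49 members with values in each of the 5 libraries, in order of role, with open circles for si-SCR, filled triangles for si-circVAMP3 and a dotted line at the filter of 0.5 FPKM. The chaperones HSP90B1, CALR, CANX and HSPA5, the factor ATF4, the enzyme PSAT1 and the secreted STC2 exceeded 100 FPKM on average, and ERN1, NUPR1 and ASNS lay under the filter.

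Among the sensors, EIF2AK3 (ENSG00000172071, chr2:88556741-88691518), which encodes the eIF2 kinase PERK, stood at 4.52, 4.05 and 4.60 FPKM in si-SCR and 2.25 and 2.30 FPKM in si-circVAMP3. Both si-circVAMP3 values were about 50% of the si-SCR level and far outside its range, with means of 4.39 ± 0.296 FPKM (SD, n = 3) in si-SCR and 2.27 ± 0.0347 FPKM (SD, n = 2) in si-circVAMP3, a change of -48.2%. It was called lower (log2 difference -0.82, 95% confidence interval -0.99 to -0.64, adjusted p = 0.000893). ATF6, the sensor that is itself a precursor of a transcription factor, was at 12.4, 12.9 and 13.4 FPKM in si-SCR and 13.3 and 12.7 FPKM in si-circVAMP3. Its groups overlapped throughout and it was not called (log2 difference 0.01, 95% confidence interval -0.11 to 0.14, adjusted p = 0.857). ERN1, which encodes IRE1, was low in every library, at 0.462, 0.387 and 0.483 FPKM in si-SCR and 0.477 and 0.396 FPKM in si-circVAMP3 from 96 to 134 reads, its groups overlapped, and it was not tested.

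Of the transcription factors, ATF4 (ENSG00000128272, chr22:39519695-39522683) was among the most abundant members, at 203, 217 and 214 FPKM in si-SCR and 197 and 191 FPKM in si-circVAMP3. The si-circVAMP3 values lay just below the lowest si-SCR value, a change of -8.2%. The gene was not called (log2 difference -0.12, 95% confidence interval -0.23 to -0.02, adjusted p = 0.0781), although with quantile normalization it was, at a log2 difference of -0.16 and an adjusted p of 0.0231 (0.0231 to 0.320 over the 16 alternative settings). ATF4 is controlled largely at translation, which RNA levels do not report.

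DDIT3 (ENSG00000175197, chr12:57516588-57521737), the gene of the pro-apoptotic factor CHOP, moved the other way, at 18.9, 18.9 and 17.9 FPKM in si-SCR and 27.2 and 28.6 FPKM in si-circVAMP3. Both si-circVAMP3 libraries exceeded all 3 si-SCR libraries by a wide margin, with means of 18.6 ± 0.561 FPKM (SD, n = 3) in si-SCR and 27.9 ± 1.03 FPKM (SD, n = 2) in si-circVAMP3. The gene was called higher, with the highest difference of any member (log2 difference 0.57, 95% confidence interval 0.46 to 0.69, adjusted p = 0.000759). GENCODE v44 places 8.0% of its exonic bases in exons of another gene on the same strand, so a small part of its reads could be set aside as ambiguous.

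XBP1 (ENSG00000100219, chr22:28794555-28800597), whose mRNA is spliced by IRE1, was at 19.4, 19.1 and 19.3 FPKM in si-SCR and 16.4 and 15.8 FPKM in si-circVAMP3. The si-SCR libraries were nearly equal and both si-circVAMP3 libraries lay below them. It was called lower (log2 difference -0.25, 95% confidence interval -0.36 to -0.15, adjusted p = 0.00703), a call that ended without si-circVAMP3 replicate 2 (adjusted p = 0.0654; 0.00594 to 0.0654 over the 16 alternative settings). Spliced and unspliced XBP1 mRNA are not told apart by a gene-level value.

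ATF3, a stress-induced factor downstream of ATF4, stood at 11.9, 12.9 and 11.9 FPKM in si-SCR and 8.85 and 9.87 FPKM in si-circVAMP3. All si-circVAMP3 values were below all si-SCR values, and ATF3 was called lower (log2 difference -0.37, 95% confidence interval -0.53 to -0.21, adjusted p = 0.00841). CEBPG, a dimer partner of ATF4, was at 28.6, 31.2 and 31.6 FPKM in si-SCR and 23.5 and 24.2 FPKM in si-circVAMP3. Again the groups were separate, with the gene called lower (log2 difference -0.34, 95% confidence interval -0.48 to -0.21, adjusted p = 0.00582). Both calls ended without si-circVAMP3 replicate 1, at an adjusted p of 0.0684 for ATF3 (0.00423 to 0.0684 over the 16 alternative settings) and 0.0543 for CEBPG (0.00208 to 0.0543 over the 16 alternative settings). The related CEBPB had a log2 difference of 0.29 and was not called (adjusted p = 0.0892), and NUPR1, a stress-induced chromatin protein, did not pass 0.304 FPKM in any library and was not tested; 16.5% of its exonic bases are shared with another gene on the same strand in GENCODE v44, and the part this plays in the low value was not tested.

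**Figure D2:**
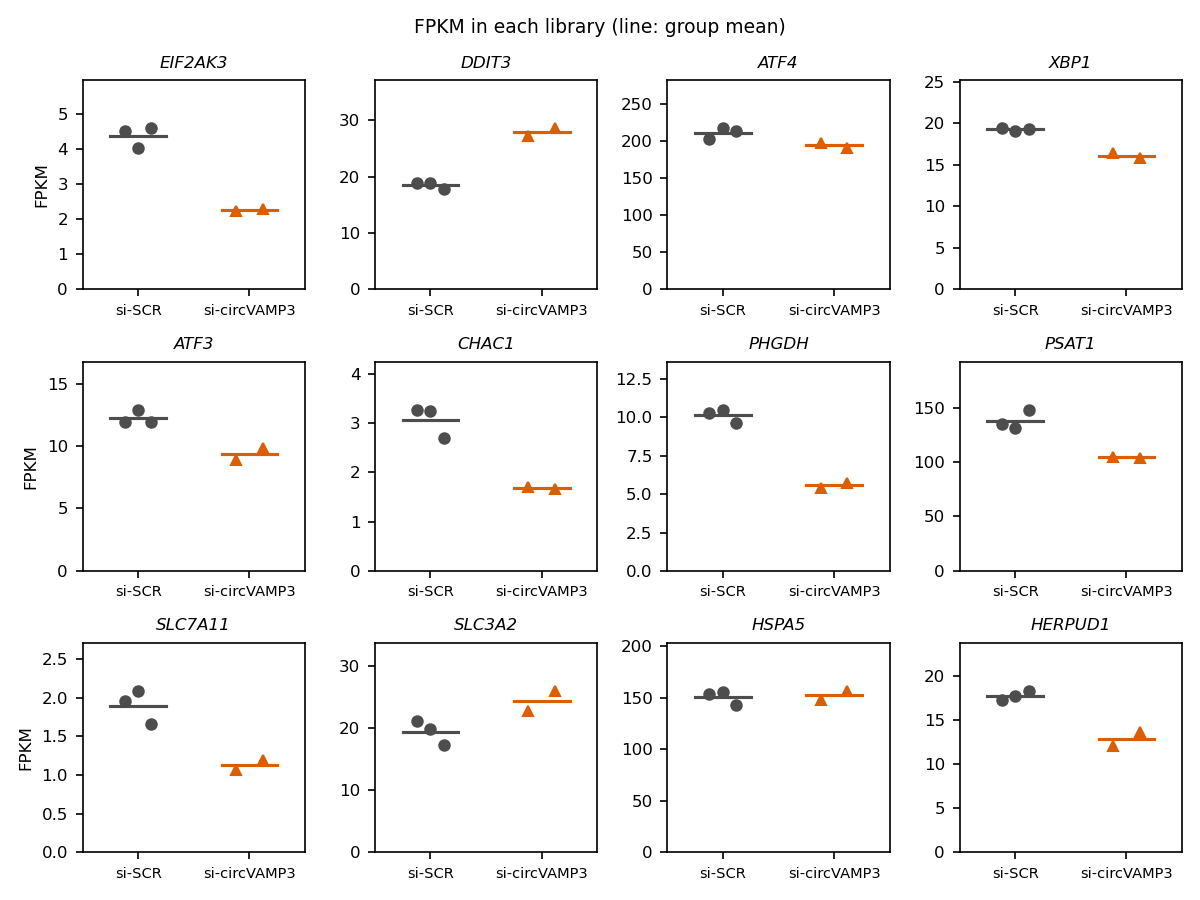
FPKM (linear axis from 0) of 12 members in each library, with circles for the 3 si-SCR libraries, triangles for the 2 si-circVAMP3 libraries and a line at each group mean. DDIT3 and SLC3A2 lay higher in si-circVAMP3, ATF4 lay marginally lower without being called, HSPA5 overlapped between groups, and the remaining 8 lay lower.

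Of the 8 stress outputs and feedback genes, 2 were called lower and 6 were not called, where 15.8% of all genes tested were called lower and 14.6% higher. CHAC1 (ENSG00000128965, chr15:40952962-40956512), an enzyme that degrades glutathione and a marker of ATF4 activity, was at 3.27, 3.24 and 2.70 FPKM in si-SCR and 1.71 and 1.66 FPKM in si-circVAMP3. Both si-circVAMP3 values fell well under the lowest si-SCR value (log2 difference -0.70, 95% confidence interval -0.93 to -0.48, adjusted p = 0.00305), although from as few as 65 reads in 1 library, the lowest count of any called member. VLDLR, a lipoprotein receptor induced through ATF4, was at 1.53, 1.80 and 1.20 FPKM in si-SCR and 0.626 and 0.681 FPKM in si-circVAMP3. The groups did not overlap, the ratio of the means was 0.43, and the gene was called lower (log2 difference -0.79, 95% confidence interval -1.11 to -0.47, adjusted p = 0.00717). At these low values the offset of 0.5 FPKM narrows the difference, which was -1.08 with an offset of 0.1. The VLDLR call ended without si-circVAMP3 replicate 1 (adjusted p = 0.0587) and without replicate 2 (adjusted p = 0.0508; 0.00174 to 0.0587 over the 15 alternative settings).

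The other 6 outputs showed no called difference, with log2 differences from -0.04 for PPP1R15B to 0.11 for TRIB3 and adjusted p from 0.269 to 0.996. They were TRIB3, a pseudokinase that feeds back on ATF4, the metabolic regulators SESN2 and DDIT4, the eIF2 phosphatase subunits PPP1R15A and PPP1R15B, and the secreted glycoprotein STC2. Their 95% confidence intervals lay between -0.24 and 0.30, which does not reach the size of the CHAC1 or VLDLR differences.

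Of the 6 genes of amino acid and one-carbon synthesis, 5 were tested and 3 were called lower (60.0%, against 15.8% of all genes tested). PHGDH (ENSG00000092621, chr1:119648411-119744218), the enzyme that opens the serine synthesis pathway, was at 10.3, 10.5 and 9.65 FPKM in si-SCR and 5.42 and 5.74 FPKM in si-circVAMP3. The si-circVAMP3 libraries stood at a little over 50% of the si-SCR level, with means of 10.1 ± 0.429 FPKM (SD, n = 3) in si-SCR and 5.58 ± 0.227 FPKM (SD, n = 2) in si-circVAMP3. PHGDH had the lowest adjusted p of all members (log2 difference -0.81, 95% confidence interval -0.95 to -0.66, adjusted p = 0.000464).

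PSAT1 (ENSG00000135069, chr9:78297125-78330093), the enzyme of the following step, was at 135, 131 and 148 FPKM in si-SCR and 105 and 104 FPKM in si-circVAMP3. The lowest si-SCR library still exceeded both si-circVAMP3 libraries, and PSAT1 was called lower (log2 difference -0.39, 95% confidence interval -0.53 to -0.26, adjusted p = 0.00426). For PSPH, which completes the pathway, the log2 difference was -0.17 with groups that did not overlap, but it was not called (adjusted p = 0.0674).

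SHMT2, which makes glycine from serine in mitochondria, was at 58.0, 61.3 and 60.5 FPKM in si-SCR and 55.1 and 53.3 FPKM in si-circVAMP3. The gap between the groups was small beside that of PHGDH, and the call was the weakest of the 14 (log2 difference -0.14, 95% confidence interval -0.24 to -0.04, adjusted p = 0.0447). It ended without si-SCR replicate 2 (adjusted p = 0.135), si-SCR replicate 3 (adjusted p = 0.0589), si-circVAMP3 replicate 1 (adjusted p = 0.128) or si-circVAMP3 replicate 2 (adjusted p = 0.228), and also with median centring (0.0980), with a replicate block (0.108) and without the trend (0.0958), with a range of 0.0299 to 0.228 over the 16 alternative settings. MTHFD2, the mitochondrial folate enzyme next to it, was not called (log2 difference 0.07, adjusted p = 0.205).

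ASNS, asparagine synthetase and a widely used ATF4 target, was listed at only 0.161, 0.180 and 0.229 FPKM in si-SCR and 0.209 and 0.128 FPKM in si-circVAMP3, from 18 to 28 reads. Its groups overlapped and it was not tested. In GENCODE v44, 49.3% of the exonic bases of ASNS are shared with another gene on the same strand, and the authors' counting sets aside reads that fall on both; the part this plays in the low value was not tested, and the level of ASNS is uncertain.

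Of the 5 amino acid transport genes, 2 were called lower (40.0%, against 15.8% of all genes tested) and 1 higher (20.0%, against 14.6%). SLC7A11, the cystine transporter that supplies glutathione synthesis, was at 1.95, 2.08 and 1.66 FPKM in si-SCR and 1.07 and 1.19 FPKM in si-circVAMP3. No si-circVAMP3 value reached the si-SCR range, and the gene was called lower (log2 difference -0.55, 95% confidence interval -0.79 to -0.32, adjusted p = 0.00841), a call that ended without si-circVAMP3 replicate 1 (adjusted p = 0.0698; 0.00253 to 0.0698 over the 15 alternative settings). SLC7A1 (ENSG00000139514, chr13:29509414-29595688), which carries arginine and lysine, was at 38.6, 39.5 and 36.8 FPKM in si-SCR and 26.9 and 26.4 FPKM in si-circVAMP3. Both si-circVAMP3 libraries lay close together and about 30% under si-SCR (log2 difference -0.52, 95% confidence interval -0.63 to -0.41, adjusted p = 0.000855).

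SLC3A2, the heavy chain that pairs with SLC7A11 and SLC7A5 at the membrane, was at 21.2, 19.8 and 17.3 FPKM in si-SCR and 22.8 and 25.9 FPKM in si-circVAMP3. The si-circVAMP3 values were above all si-SCR values, the lowest of which was replicate 3, and the gene was called higher (log2 difference 0.32, 95% confidence interval 0.10 to 0.55, adjusted p = 0.0431). That call ended without si-SCR replicate 2 (adjusted p = 0.0950), si-circVAMP3 replicate 1 (adjusted p = 0.0841) or si-circVAMP3 replicate 2 (adjusted p = 0.245), and also with a replicate block (0.0762) and without the trend (0.0644), with a range of 0.0170 to 0.245 over the 16 alternative settings. The leucine transporter SLC7A5 and the glutamine transporter SLC1A5 were not called, with log2 differences of 0.15 and 0.05.

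**Figure D3:**
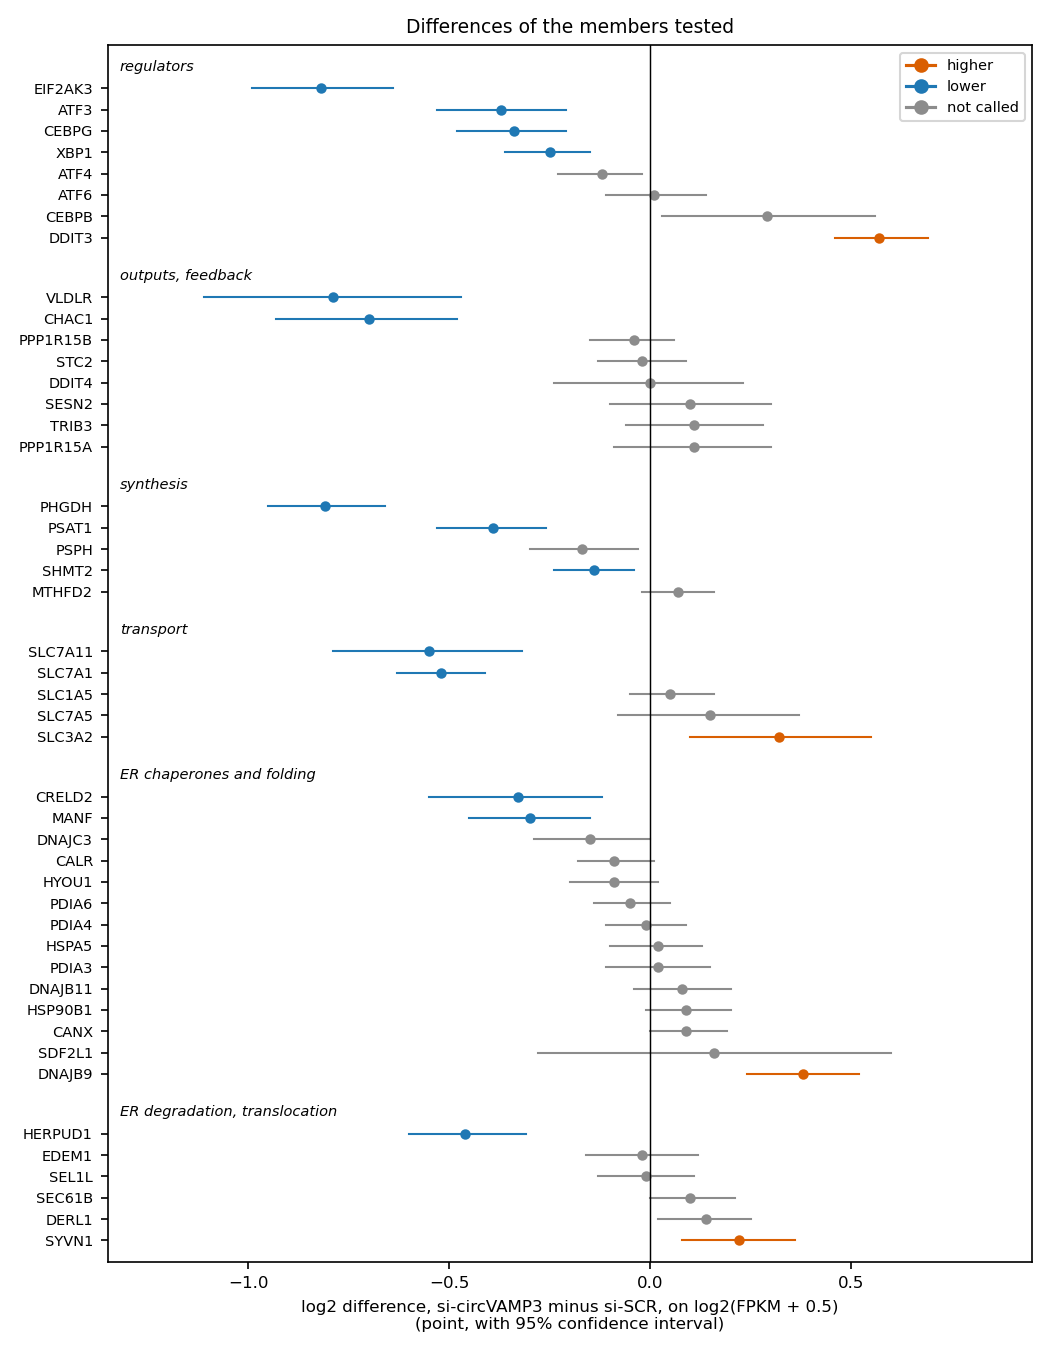
Log2 differences (si-circVAMP3 minus si-SCR, on log2(FPKM + 0.5)) of the 46 members tested, by role, as points with 95% confidence intervals, coloured by call. Lower calls reach -0.82 among the regulators and -0.81 among the synthesis genes, while most chaperone intervals cross 0.

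Of the 14 ER chaperones and folding factors, 2 were called lower (14.3%, against 15.8% of all genes tested), 1 higher (7.1%, against 14.6%) and 11 were not called, and the median log2 difference was 0.00. HSPA5 (ENSG00000044574, chr9:125234853-125241382), which encodes BiP, the main ER chaperone and a standard readout of the response, was at 153, 155 and 143 FPKM in si-SCR and 148 and 156 FPKM in si-circVAMP3. The si-circVAMP3 values fell on both sides of the si-SCR mean. Its difference was not called (log2 difference 0.02, 95% confidence interval -0.10 to 0.13, adjusted p = 0.830), and the interval leaves out changes of more than about 10% in either direction.

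The 11 chaperones and folding factors not called had log2 differences from -0.15 for DNAJC3 to 0.16 for SDF2L1 and adjusted p from 0.109 to 0.839. Beside HSPA5 they were HSP90B1, CALR, CANX, PDIA3, PDIA4, PDIA6, DNAJB11 and HYOU1, with differences between -0.09 and 0.09. CALR was called lower with quantile normalization (adjusted p = 0.0350; 0.0350 to 0.493 over the 16 alternative settings), and DNAJC3, an inhibitor of eIF2 kinases, without si-SCR replicate 3 (adjusted p = 0.0482; 0.0482 to 0.316 over the 16 alternative settings). SDF2L1 had the widest interval, -0.28 to 0.60, with si-SCR replicate 3 at 6.17 FPKM beside 9.38 and 9.03 FPKM in the other 2 control libraries.

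DNAJB9, a co-chaperone that works with BiP and is a target of XBP1, was at 5.88, 6.02 and 6.40 FPKM in si-SCR and 7.93 and 8.28 FPKM in si-circVAMP3. Both si-circVAMP3 values exceeded every si-SCR value, and DNAJB9 was called higher (log2 difference 0.38, 95% confidence interval 0.24 to 0.52, adjusted p = 0.00538), which did not hold without si-circVAMP3 replicate 2 (adjusted p = 0.0562; 0.00326 to 0.0562 over the 16 alternative settings). MANF, a small protein of the ER that is also secreted, was at 19.4, 19.8 and 21.9 FPKM in si-SCR and 16.2 and 16.7 FPKM in si-circVAMP3. The groups were separate, and MANF was called lower (log2 difference -0.30, 95% confidence interval -0.45 to -0.15, adjusted p = 0.0144), a call lost without si-circVAMP3 replicate 1 (adjusted p = 0.0999) or replicate 2 (adjusted p = 0.0770; 0.00888 to 0.0999 over the 16 alternative settings). CRELD2, another ER-resident protein induced by stress, was at 3.42, 3.29 and 2.94 FPKM in si-SCR and 2.27 and 2.64 FPKM in si-circVAMP3. It was called lower (log2 difference -0.33, 95% confidence interval -0.55 to -0.12, adjusted p = 0.0331) with a gap between the nearest libraries that was smaller than the spread within si-SCR. Leaving out si-SCR replicate 1 (adjusted p = 0.0786), si-SCR replicate 2 (adjusted p = 0.101), si-circVAMP3 replicate 1 (adjusted p = 0.200) or si-circVAMP3 replicate 2 (adjusted p = 0.0690) ended the CRELD2 call, with a range of 0.0161 to 0.200 over the 16 alternative settings.

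In ER-associated degradation and translocation, 6 of 7 genes were tested, with 1 lower and 1 higher (16.7% each, against 15.8% and 14.6% of all genes tested). HERPUD1 (ENSG00000051108, chr16:56932142-56944864), an adaptor of the degradation complex and a target of several branches of the response, was at 17.3, 17.8 and 18.3 FPKM in si-SCR and 12.1 and 13.7 FPKM in si-circVAMP3. Both si-circVAMP3 libraries were below the si-SCR range (log2 difference -0.46, 95% confidence interval -0.60 to -0.31, adjusted p = 0.00348). SYVN1, the ubiquitin ligase HRD1 of the same complex, was at 6.97, 7.19 and 7.02 FPKM in si-SCR and 8.72 and 7.94 FPKM in si-circVAMP3. Here the si-circVAMP3 values were the higher ones (log2 difference 0.22, 95% confidence interval 0.08 to 0.36, adjusted p = 0.0312). GENCODE v44 places 3.5% of the exonic bases of SYVN1 in exons of other genes on the same strand, and the part of this was not tested. The SYVN1 call ended without si-SCR replicate 1 (adjusted p = 0.0698), si-SCR replicate 2 (adjusted p = 0.0785), si-circVAMP3 replicate 1 (adjusted p = 0.199) or si-circVAMP3 replicate 2 (adjusted p = 0.0633), and also with a replicate block (0.0738), with a range of 0.0229 to 0.199 over the 16 alternative settings. SEL1L, EDEM1, DERL1 and the translocon subunit SEC61B were not called, with log2 differences from -0.02 to 0.14 and adjusted p from 0.0781 to 0.924.

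The members called lower were next described by a feature of their mRNA, the 7 letters GTGGACA that pair with bases 2 to 8 of the siRNA's antisense strand, the bases by which a small RNA first recognises a transcript. The search was chosen after the calls were seen and used the canonical GENCODE v44 transcript of each gene. Of the 14 members called lower, 6 hold the heptamer (EIF2AK3, PHGDH, CHAC1, SLC7A11, SLC7A1 and CRELD2), of the 28 not called 9 do, and the 4 called higher lack it. Among the 4 members lower by over 0.58, 3 hold it. Over all 12210 genes tested that have a transcript in the annotation, the heptamer was in 50.4% of genes called lower, 27.4% of those not called, 17.5% of those called higher and 69.0% of those lower by over 0.58.

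Matches are shown for 5 of the 6 members, 1 for each, with the heptamer in capitals and 9 bases on either side, on the mRNA strand (GRCh38). Those of EIF2AK3, PHGDH and CRELD2 lie in the coding sequence and those of SLC7A11 and SLC7A1 in the 3′ UTR.
EIF2AK3, chr2:88562348-88562372, minus strand: tctcataaaGTGGACAtcttttctt
PHGDH, chr1:119721260-119721284, plus strand: ggcacaggtGTGGACAatgtggatc
SLC7A11, chr4:138168699-138168723, minus strand: ctcagccctGTGGACAcaaaatttg
SLC7A1, chr13:29510922-29510946, minus strand: ggggggcacGTGGACAtgccccata
CRELD2, chr22:49918872-49918896, plus strand: cgggggctgGTGGACAagtttaacc
VAMP3 itself holds the heptamer at 2 places in its mRNA, 1 of them within the 11 bases of exon 3 that the siRNA covers.

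Of the 15 members with the heptamer, 6 were called lower and 9 were not called, with a median log2 difference of -0.05; of the 31 without it, 8 were called lower and 4 higher, with a median of 0.00. XBP1, ATF3, CEBPG, PSAT1, SHMT2, VLDLR, MANF and HERPUD1 were called lower without the heptamer in their canonical transcript. Among tested members with more than 1 match, SLC7A5, PDIA4 and PDIA6 (2 places each) were not called. PHGDH (2 places) and CRELD2 (3 places) were called lower. Over all genes, 27.0% of the 3615 genes with it were called lower and 8.6% higher, against 11.2% and 17.1% of the 8595 without it. The median transcript length was 3592 bases for all genes called lower, 3149 for those not called and 2717 for those called higher. In the same order it was 4226, 4377 and 3923 bases for genes with the heptamer and 3075, 2759 and 2516 for genes without it. Within the members, the lower ones had a median of 2181 bases and those not called 3047. The part of length in the calls was not tested. Of the other strings searched, TGGACA, which pairs with bases 2 to 7, was in 83.0%, 68.4% and 59.3% of the genes called lower, not called and higher, CGATGAT, the like heptamer for the listed strand, in 7.1%, 6.3% and 6.3%, and the reordered letters ACAGGTG and GGTACAG in 30.3%, 27.8% and 23.1% and in 16.9%, 16.3% and 14.4%. A match is a description of letters and not a site of action, and its part in the differences was not tested.

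**Figure D4:**
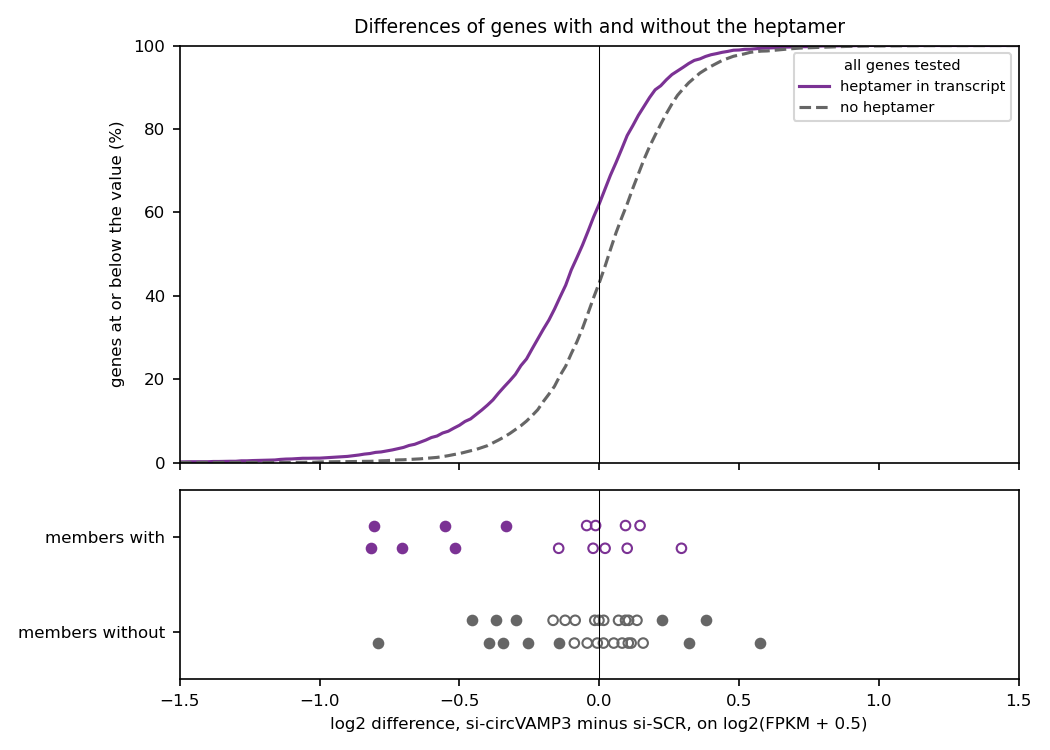
Top, the share of all genes tested (%) at or below each log2 difference (si-circVAMP3 minus si-SCR), for genes with the heptamer (solid line) and without it (dashed line), where the line for genes with it lies to the left (medians -0.07 and 0.03). Bottom, the 15 members with it and the 31 without it at their own differences, filled where called; points are set at 2 heights for legibility.

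Promoter letters known from this response were searched, also after the calls were seen, in the RefSeq promoters (GRCh38.p14, 250 bases before to 50 after the start) that 43 of the 50 members have, on both strands. Because the members were chosen as genes of the same response, their motif counts beside all genes, here and below, are a description and not a test. The ER stress response element ERSE, written as CCAAT, 9 bases of any kind and CCACG, was found in 7 members (CALR, CANX, CRELD2, HSP90B1, HSPA5, PDIA6 and XBP1) and in 0.0916% of the 27305 genes that have a promoter in the set. Of these 7, CRELD2 and XBP1 were called lower and the other 5 were not called, where 15.8% of all genes tested were called lower. Over the members tested that share was 30.4%. The matches in the main chaperone and in the 2 called genes are given on the strand of the gene, with the motif in capitals.
HSPA5, chr9:125241386-125241414, minus strand: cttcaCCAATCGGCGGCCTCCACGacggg
XBP1, chr22:28800598-28800626, minus strand: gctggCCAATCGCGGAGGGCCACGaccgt
CRELD2, chr22:49918549-49918577, plus strand: cctctCGTGGCGAACTCGGATTGGgccat
In CRELD2 the motif lies on the opposite strand.

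The composite letters TGATGCAA, bound by dimers of ATF4 with C/EBP proteins, were found in CEBPG, CHAC1, HERPUD1, PPP1R15B and SLC1A5 and in 1.08% of all genes with a promoter. The first 3 of these were called lower and the latter 2 were not called, where 15.8% of all genes tested were called lower and 14.6% higher. Among the members tested, 30.4% were called lower. The part of the motif in the calls was not tested. Matches of the 3 called genes follow, again with the motif in capitals. That of CEBPG reads in the direction of the gene and the other 2 on the opposite strand.
CEBPG, chr19:33374066-33374083, plus strand: gcgtcTGATGCAAcctgc
CHAC1, chr15:40953257-40953274, plus strand: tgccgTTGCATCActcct
HERPUD1, chr16:56931961-56931978, plus strand: gcgggTTGCATCAgcccg
With any base allowed at the sixth letter (TGATGNAA, which includes TGATGCAA), ASNS, ATF3, SLC3A2 and SLC7A1 were added, making 9 members, against 4.46% of all genes with a promoter. Of the added genes, ATF3 and SLC7A1 were called lower, SLC3A2 was called higher and ASNS was not tested. The unfolded protein response element TGACGTGG was found in HYOU1 alone and in 0.927% of all genes with a promoter. No match means only that these letters are not in this window.

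Other genes of the same pathways, 109 of 113 tested, were called lower in 24 cases (22.0%, where 15.8% of all genes tested were) and higher in 20 (18.3%, where 14.6% of all genes tested were), with a median log2 difference of 0.03. The cytosolic aminoacyl-tRNA synthetases, which load amino acids onto tRNAs and are raised by ATF4, had 8 of 20 called lower (40.0%) and 1 higher (5.0%), with a median log2 difference of -0.06 and 7 of the 20 differences above 0. RARS1, for arginine, was at 32.0, 32.4 and 34.0 FPKM in si-SCR and 17.9 and 17.3 FPKM in si-circVAMP3 (log2 difference -0.88, adjusted p = 0.000168). SARS1, for serine, showed a log2 difference of -0.56 (adjusted p = 0.000419) and GARS1, for glycine, one of -0.30 (adjusted p = 0.00592). Of 18 other ATF4 targets tested, 4 were lower (22.2%) and 1 higher (5.6%), with the lowest adjusted p for the adaptor GRB10 (log2 difference -0.48, adjusted p = 0.00254), the proline synthesis enzyme ALDH18A1 (log2 difference -0.39, adjusted p = 0.00304) and the translation repressor EIF4EBP1 (log2 difference -0.47, adjusted p = 0.00532). The GARS1 call ended when either si-circVAMP3 library was left out (adjusted p 0.00195 to 0.0531 over the 16 alternative settings) and that of EIF4EBP1 without si-circVAMP3 replicate 2 (0.00178 to 0.0543).

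Among the 11 other eIF2 kinases and subunits of eIF2 and eIF2B, 2 were lower (18.2%, against 15.8% of all genes tested) and 3 higher (27.3%, against 14.6%). The double-stranded RNA kinase EIF2AK2 was lower (log2 difference -0.48, adjusted p = 0.00496), as was EIF2B3 (log2 difference -0.22, adjusted p = 0.0194), while EIF2B2 was higher (log2 difference 0.19, adjusted p = 0.0391). Of 6 other ER stress transducers and ATF6 proteases tested, 2 were lower (33.3%), both of them Golgi proteases that cut ATF6, MBTPS1 (log2 difference -0.37, adjusted p = 0.00371) and MBTPS2 (log2 difference -0.35, adjusted p = 0.00878), and the other 4 were not called, ATF6B being nearest (log2 difference 0.17, adjusted p = 0.0705); it was called higher with median centring (adjusted p = 0.0473; 0.0473 to 0.323 over the 16 alternative settings). When either si-circVAMP3 library was left out, MBTPS2 (adjusted p 0.00253 to 0.0705 over the 16 settings), EIF2B3 (0.0170 to 0.109) and EIF2B2 (0.0312 to 0.236) were no longer called. The EIF2B3 call also ended without si-SCR replicate 2 and with a replicate block, and that of EIF2B2 without si-SCR replicate 1 or 2, with quantile normalization, with a replicate block and without the trend.

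Of 15 further ER folding enzymes, 3 were lower (20.0%, against 15.8% of all genes tested) and 5 higher (33.3%, against 14.6%), led by ERP29 (log2 difference 0.43, adjusted p = 0.00299), the oxidase ERO1A (log2 difference -0.53, adjusted p = 0.00322) and FKBP14 (log2 difference -0.48, adjusted p = 0.00422). Of the 21 further degradation and translocon genes, 3 were lower (14.3%) and 6 higher (28.6%); DERL2 was at 6.50, 6.75 and 6.71 FPKM in si-SCR and 3.77 and 4.06 FPKM in si-circVAMP3 (log2 difference -0.70, adjusted p = 0.000784), OS9 was higher (log2 difference 0.33, adjusted p = 0.00445) and so was SSR2 (log2 difference 0.33, adjusted p = 0.00650). Of 8 mitochondrial chaperones and proteases, 1 was lower (12.5%) and 3 higher (37.5%), with HSPE1 (log2 difference 0.22, adjusted p = 0.0123), HSPA9 (log2 difference 0.15, adjusted p = 0.0211) and CLPP (log2 difference -0.24, adjusted p = 0.0273) foremost. Of 11 cytosolic heat shock genes, 1 (9.1%) was lower, HSPA8 (log2 difference -0.18, adjusted p = 0.0298), 1 was higher, HSP90AB1 (log2 difference 0.14, adjusted p = 0.0480), and HSF1 was next without being called (log2 difference -0.41, adjusted p = 0.0515). When either si-circVAMP3 library was left out, the calls of SSR2 (adjusted p 0.00165 to 0.0564 over the 16 alternative settings), HSPE1 (0.00624 to 0.0946), HSPA9 (0.0134 to 0.127), CLPP (0.0169 to 0.175) and HSPA8 (0.00277 to 0.204) ended, those of HSPA9, CLPP and HSPA8 also without si-SCR replicate 2 and those of CLPP and HSPA8 without si-SCR replicate 1. The HSP90AB1 call ended whichever library was left out (0.00677 to 0.241) and without a filter. HSPA8 lost its call with median centring, and HSPA8, HSPA9 and HSP90AB1 lost theirs with a replicate block and without the trend. HSF1 was called lower without si-SCR replicate 3 (adjusted p = 0.00192; 0.00192 to 0.202 over the 16 settings), with median centring, with a mean of at least 2 FPKM, with a replicate block and in the voom fit.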

How the data were processed

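RNA of 5 RH4 cultures was prepared with the TruSeq Stranded mRNA kit. The authors trimmed reads with Trimmomatic, aligned them with STAR 2.5.2b to GRCh38 (Ensembl annotation), counted reads of the sense strand per gene with HTSeq, removed genes with few reads and deposited FPKM values made with edgeR. Tools are as in the submitters' processing notes and the study's methods, where the authors tested counts with edgeR. Because the values used here are FPKM, limma 3.58.1 (R 4.3.3; lmFit and eBayes with a trend) was fitted to log2(FPKM + 0.5) of the 12245 genes with a mean of at least 0.5 FPKM, with group as the only term, and p-values were adjusted over all of them (Benjamini-Hochberg, threshold 0.05). The fit was tested on simulated data, with a spread between cultures that was set beforehand and not estimated from these libraries. With 3 samples against 2, an exact permutation test of 1 gene cannot go below p = 0.1 and was not used.

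Symbols were found for 13783 of 13822 Ensembl identifiers. Ratios of FPKM values between libraries were solved for whole reads in 13822 genes (tolerance 1e-06 reads), which gave the depths stated; precision beyond counting error is the spread between libraries. Replicate numbers are shared between groups but nothing says that they pair cultures, so no block was used in the main fit. Alternatives were the offset, the filter, the scaling, a replicate block, leaving out each library, the variance model, a limit on the difference, and, chosen after seeing the data, voom on the whole reads.

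The members and lists were chosen with earlier results of these data known. The text names VAMP3, all members by role with values in every library for those called and for the sensors, ATF4, XBP1, DDIT3 and HSPA5, and up to 3 genes with the lowest adjusted p of each other list. Transcript and promoter letters, 5 strings and 4 motifs, were chosen after seeing the data. Exon positions, transcripts and overlaps are from GENCODE v44, which is not the release the authors used; promoters are from RefSeq.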

Additional observations from a re-analysis of the deposited data

How the results depend on the processing

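The 18 called members kept their direction in every alternative in which they were tested, and so did the 4 higher and 14 lower calls with an offset of 0.1 or 1, without a filter, with robust variance estimates, and with voom on whole reads, which was chosen after seeing the data. A filter at a mean of 2 FPKM left SLC7A11 and VLDLR untested and kept the other 16 calls. Quantile normalization kept all 18 calls and added ATF4 and CALR as lower, and median centring lost SHMT2. The median member log2 difference was -0.047 with quantile normalization, 0.006 with median centring and -0.035 with the replicate block, against -0.014 in the main fit. Median centring moves all genes alike, and the median over all genes tested was then 0.028, against 0.007 in the main fit. Fitting limma without a trend lost SHMT2 and SLC3A2. Leaving out 1 library at a time gave 1263 to 3994 calls over all genes, 1 to 4 members called higher, 7 to 14 called lower and a median member difference of -0.035 to -0.012; where 1 library was left in si-circVAMP3, it was taken to vary as the others do. Demanding a log2 difference over 0.58 in size gave 466 calls over all genes, 4 members lower and 0 higher; DDIT3, at 0.575 in the main fit, lay between 0.538 and 0.612 over the alternatives, on both sides of that limit, and SLC7A11 (-0.55 in the main fit) was called and past it with an offset of 0.1, with the replicate block, with voom and without si-SCR replicate 3 or si-circVAMP3 replicate 2.

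No label says whether same-numbered cultures were handled together; across genes, the deviations from the group means correlated at -0.15 for replicate 1 and -0.04 for replicate 2, and genes are not independent replicates. With the replicate block, 3122 genes were called in place of 3723 (1662 lower and 1460 higher of 12245 genes). Among the members, 13 were lower and 2 higher, with SHMT2, SLC3A2 and SYVN1 no longer called, and the cause was not tested.

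CHAC1, ERN1, NUPR1 and ASNS had the fewest reads of the members. The part of sequencing depth in this, and of shared exons for NUPR1 and ASNS, was not tested. With 2 si-circVAMP3 libraries, 11 of the 18 calls ended in at least 1 fit that left out a library.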
